A study of Mus musculus with 4 samples.

Results

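The DNA replication genes comprise 43 genes of 27998 counted, a list of replication factors given by name, and all 43 are present in the counts of all 4 libraries. They were followed in satellite cells (MuSCs), the stem cells of skeletal muscle, sorted from hindlimb as Cd11b−, Sca1−, Cd45−, Cd31− cells positive for α7-integrin and VCAM1, with the muscle of 2 mice pooled per strain. B10 (strain C57/Bl10ScsSn, 15 weeks) served as the control of *mdx* (strain C57BL/10ScSn-Dmdmdx, 11 weeks), and DBA (strain DBA/2, 13 weeks) as the control of D2-*mdx* (strain D2.B10-Dmdmdx, 14 weeks). Both dystrophic strains carry the mdx mutation of the dystrophin gene *Dmd*, the labels name no treatment, and ages differed between strains. Each strain gave 1 library of 10X Genomics 3′ single-cell RNA sequencing. With a single library per strain there was no replicate and no test, and age, litter and library cannot be told apart from strain. The unit is the unique molecular identifier (UMI). A level in CPM is the UMI count of a gene or of all 43 genes over a group of cells, relative to the total UMI count of the same cells and scaled to counts per 1000000. Where 4 values stand together they follow the order B10, *mdx*, DBA, D2-*mdx*, and paired log2 ratios set *mdx* over B10 first, then D2-*mdx* over DBA. Values in parentheses are exact 95% intervals, which cover counting error only. A level depends on how well the 3′ end of a transcript is captured, so levels were compared between cells and libraries, never between genes.

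The libraries held 43542853 to 75482888 UMIs each. After filtering, 4418, 4818, 2700 and 4181 cells were myogenic in the 4 libraries. The median UMI count of these cells was 8424, 6847.5, 10294.5 and 6475, so the dystrophic libraries were shallower per cell than their controls. *Dmd*, carried as a check of the labels, stood at 324, 119, 287 and 94.2 CPM. Markers of other cell types were low in the myogenic cells: *Ptprc* (leukocytes), *Cdh5* (endothelium) and *Sox10* (glia) lay at or below 2.12 CPM and *Pdgfrb* (pericytes) at or below 4.36 CPM in every library. Transcripts of cells outside the sort were also counted: *Hbb-bs*, a red cell globin, reached 157, 244, 174 and 588 CPM. *Acta1*, a myofibre actin, was at 10.3, 49.8, 9.59 and 124 CPM. The paper lists *Acta1* among genes upregulated in satellite cells of both dystrophic strains, and the source of its transcripts here was not tested. No pair of libraries shared more than 8 barcodes of kept cells.

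Before a cell divides, its genome is copied during S phase of the cell cycle. Origins are licensed in G1 when the ORC complex, CDC6 and CDT1 load the MCM2-7 helicase. The helicase is then activated by CDC45 and the GINS complex, polymerases copy the strands behind it, and PCNA clamps them to DNA. The supply of deoxynucleotides and the reassembly of chromatin are tied to the same phase, and E2F factors drive many of these genes at the G1/S boundary. Adult satellite cells are mostly quiescent, marked by the transcription factor *Pax7*, and enter the cycle after injury. *Mki67* (a proliferation antigen) and *Top2a* (a topoisomerase) mark cycling cells, with highest transcript levels late in the cycle, so a cell without a UMI of either may still be in G1 or early S phase.

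Promoter sequence was available from RefSeq (GRCm38.p6) for 36 of the 43 genes, from 250 bases before to 50 bases after the transcription start. It was searched on both strands for 4 words of the E2F type, TTTCCCGC, TTTGGCGC, TTTCGCGC and TTTGCCGC, some of which can overlap each other. A word was found for 14 of the 36 genes (38.9%), against 704 of all 27025 genes (2.6%) over windows of the same length. The word CCAAT was found for 24 of the 36 genes (66.7%), against 41.1% of all genes. A match is a run of letters and not a shown binding site. The 5 promoters below are shown because the results turn on their genes, which were picked after their values were seen, and capitals mark the E2F-type words. *Rrm2* (chr12:24708004-24708303, plus strand) and *Pcna* (chr2:132253131-132253430, minus strand) hold no such word. *Mcm6* (chr1:128359656-128359955, minus strand) holds 3, of which 2 overlap, while *2810417H13Rik* (chr9:65890073-65890372, plus strand) and *Pola1* (chrX:93632106-93632405, minus strand) hold 1 each.
Rrm2: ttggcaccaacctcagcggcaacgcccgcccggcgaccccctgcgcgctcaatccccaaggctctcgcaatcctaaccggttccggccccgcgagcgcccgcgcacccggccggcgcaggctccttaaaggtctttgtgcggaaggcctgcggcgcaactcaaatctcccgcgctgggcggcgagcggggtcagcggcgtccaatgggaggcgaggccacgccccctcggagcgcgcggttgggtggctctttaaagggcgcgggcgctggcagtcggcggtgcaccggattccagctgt
Mcm6: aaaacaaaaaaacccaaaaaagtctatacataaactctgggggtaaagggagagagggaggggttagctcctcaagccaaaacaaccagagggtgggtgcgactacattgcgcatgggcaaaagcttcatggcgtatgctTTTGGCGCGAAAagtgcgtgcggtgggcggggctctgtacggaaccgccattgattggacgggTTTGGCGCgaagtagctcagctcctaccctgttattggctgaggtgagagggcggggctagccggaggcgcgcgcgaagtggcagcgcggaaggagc
2810417H13Rik: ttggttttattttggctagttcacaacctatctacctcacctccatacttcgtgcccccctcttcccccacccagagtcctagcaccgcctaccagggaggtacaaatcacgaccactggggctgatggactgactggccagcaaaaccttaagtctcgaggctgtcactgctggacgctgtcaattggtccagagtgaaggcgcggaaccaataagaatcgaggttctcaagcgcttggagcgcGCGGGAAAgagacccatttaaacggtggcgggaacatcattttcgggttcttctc
Pcna: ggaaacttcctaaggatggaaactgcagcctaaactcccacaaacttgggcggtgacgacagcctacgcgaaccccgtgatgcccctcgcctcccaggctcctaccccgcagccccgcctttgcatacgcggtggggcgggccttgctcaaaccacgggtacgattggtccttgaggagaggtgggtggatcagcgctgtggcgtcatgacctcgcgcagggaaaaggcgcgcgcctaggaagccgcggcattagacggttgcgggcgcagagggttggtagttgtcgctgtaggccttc
Pola1: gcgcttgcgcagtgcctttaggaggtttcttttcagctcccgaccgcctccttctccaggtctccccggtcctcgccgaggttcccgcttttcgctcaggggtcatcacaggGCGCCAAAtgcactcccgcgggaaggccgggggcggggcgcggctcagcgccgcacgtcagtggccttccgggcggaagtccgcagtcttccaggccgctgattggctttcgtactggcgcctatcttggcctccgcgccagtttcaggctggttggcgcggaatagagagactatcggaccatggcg

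Over all myogenic cells, DNA replication transcripts were more abundant in both dystrophic libraries than in their controls, and more so in D2-*mdx*. The 43 genes together held 598 (590.2 to 605), 719 (711 to 727), 586 (577 to 594) and 960.1 (949.9 to 970.5) CPM. The log2 ratio was 0.27 (0.24 to 0.29) in *mdx* and 0.71 (0.69 to 0.74) in D2-*mdx*. The controls thus lay close together and the dystrophic libraries apart. With barcodes of more than 5000 genes and from 500 genes upward also admitted, the log2 ratios were 0.62 and 1.23. Over barcodes of every cell type, the excluded ones above 5000 genes held 33.1% of the member UMIs of *mdx* and 56.8% of those of D2-*mdx*. The values were 8.56% in B10 and 25.7% in DBA. The same barcodes held 2.49, 13.26, 11.03 and 29.99% of all UMIs in the 4 libraries. These are not shares of the myogenic cells alone.

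Of the 43 genes, 36 reached a mean of 5 CPM over the 4 libraries, the minimum set for counting genes. Genes low in the controls could thus pass through their level in the dystrophic libraries. *Rrm2*, *Tk1*, *Gmnn*, *Uhrf1*, *Mcm2* and *Cdt1* did so, each under 5 CPM in both controls. All of these but *Cdt1* are among the genes counted below as at least 2-fold higher in *mdx*, and all are among those of D2-*mdx*. *2810417H13Rik*, at 1.75 CPM in B10 and 5.64 CPM in DBA, is in both counts too and owed most of its mean to the dystrophic libraries. Both counts thus rest in large part on genes admitted through the libraries where they are high. They are descriptions only, and the medians rest partly on the same genes. A minimum of 20 CPM lowered both counts of higher genes. In *mdx*, 7 of these 36 were at least 2-fold higher than in B10, where 4.84% of all 9766 genes above the minimum were, and 0 were 2-fold lower, against 5.17% of all genes. D2-*mdx* had 13 of 36 at least 2-fold higher than DBA, against 5.65% of all 9765 genes, and 0 2-fold lower, against 5.98%. With no minimum, 11 and 18 of the 43 were at least 2-fold higher, against 12.3% and 14.2% of all genes with more than 3 UMIs in a library of the pair. The median log2 ratio of the 36 genes was 0.34 in *mdx* and 0.81 in D2-*mdx*, where the medians of all genes were -0.046 and -0.091. Genes above 0 numbered 26 of 36 in *mdx* and 32 of 36 in D2-*mdx*. No share of all genes above 0 was set beside these counts, which include the genes admitted through the dystrophic libraries.

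**Figure D1:**
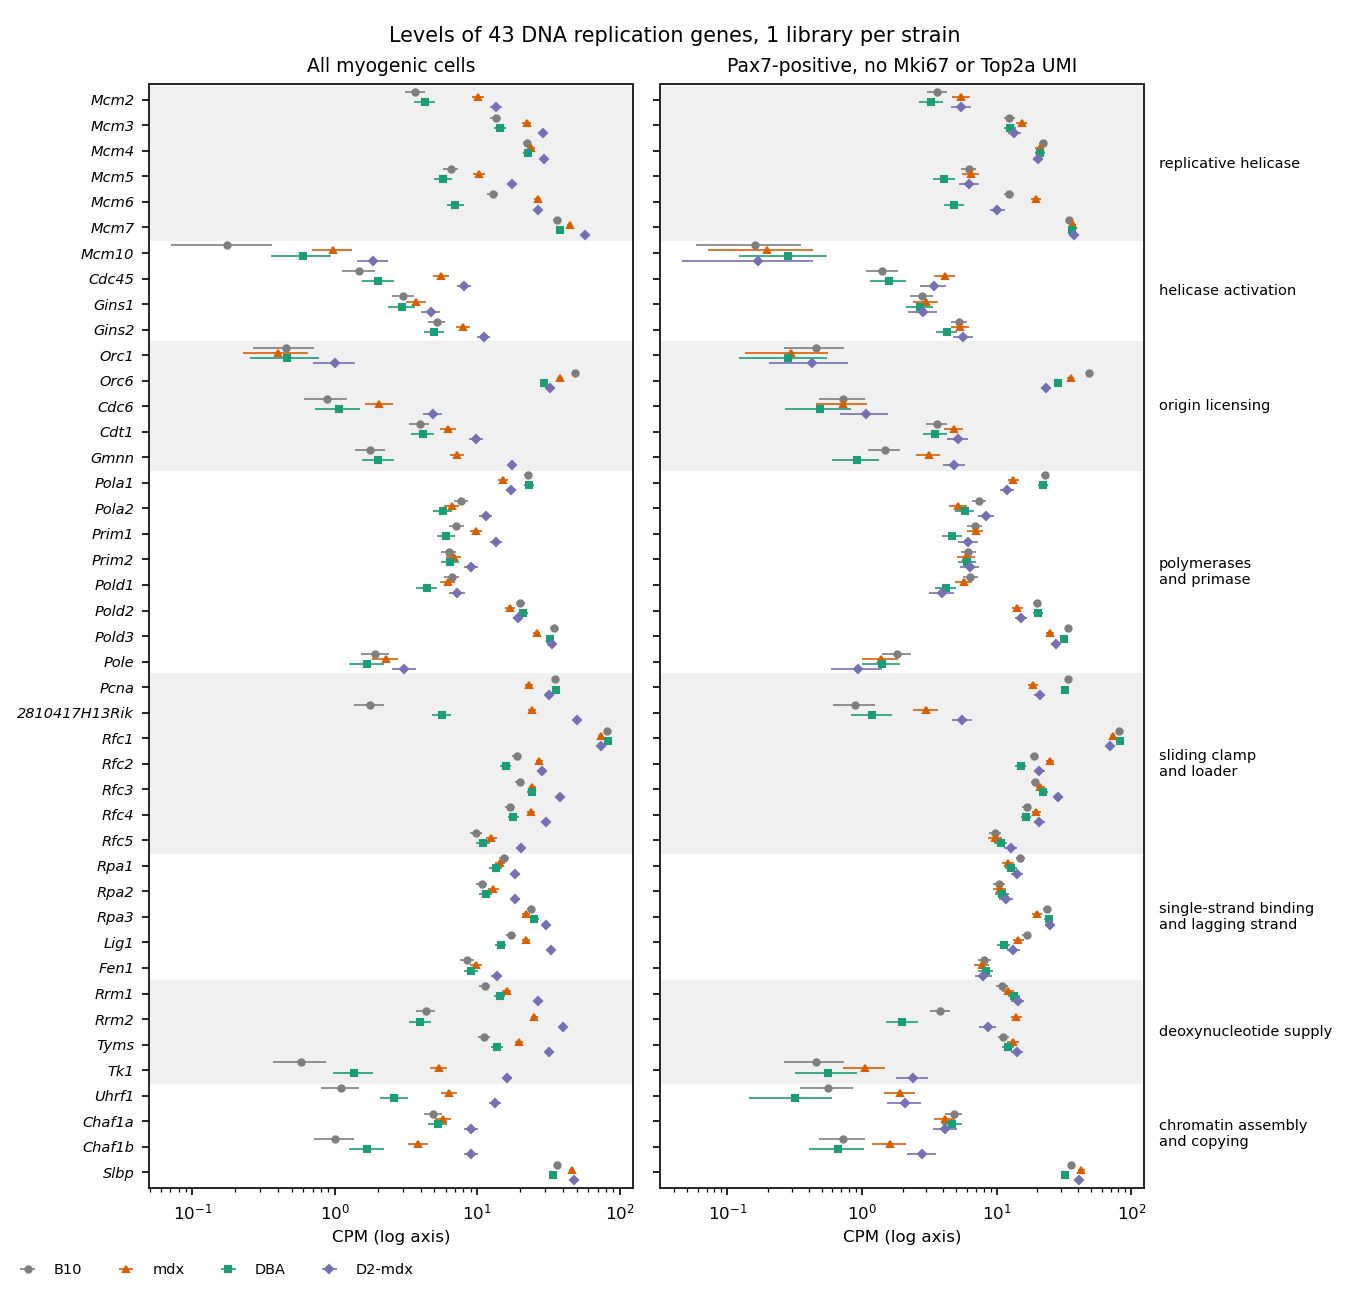
Level of each of the 43 genes in CPM on a log axis, 1 point per library with its exact 95% Poisson interval, grouped by role. The left panel covers all myogenic cells and the right panel *Pax7*-positive cells without *Mki67* or *Top2a* UMIs, where *Rrm2* still stood higher in *mdx* and D2-*mdx* while *Pola1* and *Pcna* stood lower than in the controls.

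The largest difference by role was in deoxynucleotide supply. Its 4 genes summed to 27.4, 66.4, 33.6 and 115 CPM, with log2 ratios of 1.28 (1.18 to 1.38) and 1.77 (1.67 to 1.87). *Rrm2*, the S-phase subunit of ribonucleotide reductase, which makes deoxynucleotides from ribonucleotides, was at 4.36, 25.2, 3.98 and 40.0 CPM. Both controls were low and both dystrophic libraries high, with log2 ratios of 2.53 (2.30 to 2.77) and 3.33 (3.06 to 3.61). *Tk1*, the thymidine kinase of the salvage pathway, was at 0.577, 5.38, 1.36 and 16.2 CPM, from 23 UMIs in B10 and 41 in DBA, and its log2 ratios were 3.22 (2.60 to 3.91) and 3.58 (3.12 to 4.07). *Tyms*, which makes thymidylate, differed less, at 11.2, 19.7, 13.8 and 31.9 CPM, and *Rrm1*, the large subunit of the reductase, still less, with log2 ratios of 0.52 (0.34 to 0.69) and 0.89 (0.72 to 1.06). Of the 4 genes, 2 in *mdx* and 3 in D2-*mdx* were thus at least 2-fold higher, against 4.84% and 5.65% of all genes. *Rrm2* and *Tk1* lay under 5 CPM in both controls and passed the minimum through the dystrophic libraries.

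The replicative helicase MCM2-7 was higher as a whole, at 94.9, 138, 92.5 and 173 CPM. All 6 subunits had log2 ratios above 0 in both comparisons, yet by unequal amounts. *Mcm2* stood at 3.66, 10.2, 4.28 and 13.5 CPM, a log2 ratio of 1.48 (1.20 to 1.76) in *mdx* and 1.66 (1.38 to 1.95) in D2-*mdx*. *Mcm6* stood at 12.9, 26.6, 7.0 and 26.8 CPM, so that the dystrophic libraries were alike while DBA lay below B10, and its log2 ratios were 1.05 (0.89 to 1.20) and 1.94 (1.72 to 2.16). For *Mcm5* they were 0.67 (0.44 to 0.90) and 1.60 (1.36 to 1.85), and for *Mcm3* 0.72 and 0.99. *Mcm7* and *Mcm4* differed least, with 0.30 and 0.11 in *mdx* and 0.56 and 0.39 in D2-*mdx*.

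Genes that activate the helicase summed to only 9.88, 18.2, 10.6 and 25.8 CPM. *Cdc45*, which joins MCM2-7 in the active helicase, was at 1.48, 5.6, 2.02 and 8.11 CPM, with log2 ratios of 1.92 (1.5 to 2.36) and 2.00 (1.60 to 2.43). *Gins2* and *Gins1*, subunits of GINS, had 0.61 and 0.29 in *mdx* and 1.16 and 0.68 in D2-*mdx*. *Mcm10*, a further activation factor, was counted with 7, 39, 18 and 65 UMIs.

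The licensing genes did not move as a block. *Gmnn*, which encodes geminin, the inhibitor of CDT1 after S phase begins, was at 1.78, 7.26, 2.02 and 17.6 CPM, low in both controls, with log2 ratios of 2.03 (1.65 to 2.42) and 3.12 (2.74 to 3.53). *Cdc6* and *Cdt1*, the loaders of the helicase, had 1.23 (0.64 to 1.84) and 0.67 (0.38 to 0.97) in *mdx* and 2.21 (1.66 to 2.80) and 1.24 (0.94 to 1.55) in D2-*mdx*. The counts of *Cdt1* may share reads with *Gm20388*, an overlapping gene on the same strand. *Orc6*, a subunit of the origin recognition complex, was highest in B10 and stood at 48.6, 38.0, 29.3 and 32.5 CPM, so its log2 ratio was -0.36 (-0.45 to -0.26) in *mdx* and 0.15 (0.021 to 0.28) in D2-*mdx*, where it turned to -0.13 as a mean over cells. *Orc1* was counted with at most 35 UMIs in a library.

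The polymerases and primase together stood at 107, 90.2, 101 and 114 CPM. *Pola1*, the catalytic subunit of polymerase α, which starts new strands, was lower in both dystrophic libraries, at 22.9, 15.2, 23.1 and 17.3 CPM, log2 ratios of -0.59 (-0.74 to -0.44) and -0.42 (-0.58 to -0.26). Its partner *Pola2* had -0.21 (-0.46 to 0.028) in *mdx* and 1.00 (0.74 to 1.26) in D2-*mdx*, and the primase subunit *Prim1* had 0.46 and 1.16. For the polymerase δ subunits *Pold2* and *Pold3* the log2 ratios were -0.24 and -0.39 in *mdx* and -0.12 and 0.043 in D2-*mdx*. *Pold1*, *Pole* and *Prim2* lay between -0.090 and 0.86.

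Among the clamp and its loader, *2810417H13Rik*, which encodes the PCNA-associated factor PCLAF, was counted at 1.75, 24.4, 5.64 and 50.5 CPM, log2 ratios of 3.80 (3.45 to 4.17) and 3.16 (2.94 to 3.40). *Pcna*, the clamp itself, went the other way, with 35.2, 23.2, 35.9 and 31.9 CPM and log2 ratios of -0.60 (-0.72 to -0.48) and -0.17 (-0.29 to -0.049), the latter of which turned to 0.15 when barcodes of 500 genes and more were all admitted. *Rfc1*, the large subunit of the clamp loader, contributed 10.9% of the sum of the 43 genes and was slightly lower in both dystrophic libraries, at 81.5, 73.4, 83.2 and 73.4 CPM. *Rfc2* to *Rfc5*, the small subunits, were higher, by 0.30 to 0.53 in *mdx* and 0.65 to 0.88 in D2-*mdx* on the log2 scale. With *Rfc1* left out, the sum of the other genes had log2 ratios of 0.32 and 0.82.

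Single-strand binding and lagging-strand genes summed to 75.7, 81.1, 73.7 and 114 CPM. *Lig1*, the ligase that joins Okazaki fragments, was at 17.3, 22.0, 14.6 and 33.1 CPM, log2 ratios of 0.34 (0.20 to 0.49) and 1.18 (1.02 to 1.34). *Rpa1*, *Rpa2* and *Rpa3*, the subunits of replication protein A, and *Fen1*, the flap nuclease, lay between -0.12 and 0.28 in *mdx* and between 0.29 and 0.69 in D2-*mdx*. In chromatin assembly and copying, *Uhrf1*, which passes DNA methylation to the new strand, was at 1.1, 6.34, 2.62 and 13.3 CPM, log2 ratios of 2.52 (2.06 to 3.02) and 2.34 (2.00 to 2.71). *Chaf1b*, a subunit of the histone chaperone CAF-1, followed with 1.95 (1.44 to 2.49) and 2.42 (1.99 to 2.88), whereas *Chaf1a* had 0.24 and 0.78. *Slbp*, which binds histone mRNA, had 0.34 (0.24 to 0.44) and 0.50 (0.39 to 0.61).

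To find the cells that held these transcripts, the UMIs of *Pax7*, *Mki67* and *Top2a* and the clusters of cells were used in turn. By marker UMIs, *Pax7*-positive cells with *Mki67* or *Top2a* numbered 201, 381, 84 and 412 and held 841 (804 to 880.4), 1494 (1458 to 1531), 1668 (1593 to 1745) and 2131 (2091 to 2171) CPM of the 43 genes. Among them, those with 1 UMI of the pair of genes held 619, 691, 754 and 995 CPM and those with 2 or more 2019, 3048, 3175 and 3153 CPM, from 28, 96, 25 and 171 cells. *Pax7*-negative cells with either gene were 3, 81, 4 and 159 in number and held 1066, 2576, 4603 and 2462 CPM. *Pax7*-negative cells without either, 32, 544, 30 and 406 in number, held 517, 613, 528 and 863 CPM, so the control values of both *Pax7*-negative groups rest on few cells. Of the 121 CPM by which *mdx* exceeded B10, *Pax7*-positive and *Pax7*-negative cells with *Mki67* or *Top2a* contributed 114 and 62.1 CPM more and *Pax7*-negative cells without them 66.1 CPM more, while the contribution of *Pax7*-positive cells without them fell by 121 CPM. In D2-*mdx* the difference of 375 CPM from DBA was made of 252, 166 and 84.8 CPM more from the same 3 groups, and the contribution of the remaining cells fell by 128 CPM. A contribution mixes the share of a group among all UMIs with the level inside it.

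Clusters were then formed with the 43 genes left out of the features and named from marker genes, so each name means resemblance only. In a first round over all cells, *Top2a*, *Pbk* and *Cenpf* headed the cluster named cycling progenitor-like. Its 32, 325, 49 and 428 cells were 0.724, 6.75, 1.81 and 10.2% of the myogenic cells and held 5.43, 31.8, 14.5 and 53.1% of the member UMIs. The level of the 43 genes in it was 2494 (2359 to 2633), 2289.7 (2243 to 2337), 3205 (3082 to 3332) and 2683 (2644 to 2723) CPM, and *Mki67* or *Top2a* was found in 34.4, 36.6, 40.8 and 58.2% of its cells. In the remaining myogenic cells the level was 573 (565 to 580.3), 545 (537 to 553), 514 (506 to 523) and 556 (548 to 565) CPM. The 4 libraries thus spanned a narrow range outside this cluster and a higher one inside it, with each dystrophic library below its own control in the cluster, while its share of cells was larger in each dystrophic library than in its control. This cluster was looked at after the values of the second round had been seen.

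A second round over the myogenic cells alone divided the cycling cells. MuSC-like clusters were led by *1200007C13Rik*, *Nr4a1* and *Btg2*, by *Gm3336*, *Neu1* and *Gm26615*, by *Idi1*, *Msmo1* and *Hmgcs1*, and by *Dlk1*, *Hhip* and *Car3*. Differentiating myocyte-like cells were led by *Actc1*, *Myog* and *Tmem8c* and immunomyoblast-like cells by *Ifit1*, *Ifit3* and *Ifit3b*. The cluster named cycling progenitor-like was led by *Esm1*, *Fosl1* and *Hmga2*, which are not cell cycle genes. The cluster named DMD-enriched-like was led by *Postn*, *Cenpf* and *Gper1*, of which *Cenpf* is a kinetochore gene, and its markers scored 1.88 for that name and 1.68 for cycling progenitors. Of the cells of the first-round cycling cluster, 25, 278, 32 and 358 fell into the former and 5, 41, 12 and 66 into the latter. With the 43 genes kept as features, *Top2a*, *2810417H13Rik* and *Pbk* headed the cycling progenitor-like cluster and the DMD-enriched-like one was led by *Postn*, *Mgp* and *Gper1*. Where cycling cells fell thus depended on the features. Summed levels of these 2 clusters are given for both clusterings, and other values are those of the clustering without the 43 genes unless stated.

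MuSC-like cells, 4042, 3129, 2495 and 2874 in number, held 572 (564 to 579.5), 536 (525 to 546), 514 (505 to 523) and 512 (502 to 523) CPM of the 43 genes, no higher in disease than in the controls. Differentiating myocyte-like cells held 577, 546, 475 and 581 CPM and immunomyoblast-like cells 537, 505, 618 and 486 CPM, the DBA value of the latter from only 11 cells. DMD-enriched-like cells, 69, 997, 72 and 653 in number, held 806, 680.4, 1208 and 962 CPM. Without those that had *Mki67* or *Top2a* UMIs they held 601, 545, 575 and 564 CPM, close to the level of MuSC-like cells. With the 43 genes kept as features, DMD-enriched-like cells held 551, 539.5, 578 and 585 CPM, the B10 value from 36 cells.

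Cycling progenitor-like cells of the second round were 2.22, 6.56, 1.89 and 9.11% of the myogenic cells and held 6.9, 25.9, 10.6 and 44.3% of the member UMIs. Their level was 1226 (1168 to 1287), 2009 (1964 to 2055), 2345 (2240.02 to 2454) and 2505 (2465 to 2546) CPM. The low value belonged to B10, where 15 of 98 cells had *Mki67* or *Top2a*. In the 4 libraries that share was 15.3, 25.9, 19.6 and 51.7%, a UMI of *Pax7*, *Myf5*, *Myod1* or *Myog* was present in 100, 90.5, 100 and 91.9%, and *Pax7* alone in 100, 65.2, 98.0 and 52.5%. Markers of other cell types were found in more of the D2-*mdx* cells than elsewhere: *Pdgfrb* in 1.02, 1.58, 1.96 and 5.77%, *Sox10* in 1.02, 0.633, 0 and 2.36%, *Cdh5* in 0, 1.27, 0 and 2.1% and *Ptprc* in 0, 0, 0 and 1.05% of the cells, and their part in the result was not tested. The cluster differed in makeup between libraries, and levels within it are values of unlike mixtures. Its cells with *Mki67* or *Top2a* held 2500.4, 4077, 5458 and 3205 CPM and those without 938, 1002, 1437 and 1428 CPM. The former numbered 15, 82, 10 and 197, so the B10 and DBA values rest on few cells. With the 43 genes kept as features the cluster held 1317, 2026, 2419 and 2557 CPM, from 108, 411, 74 and 500 cells.

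**Figure D2:**
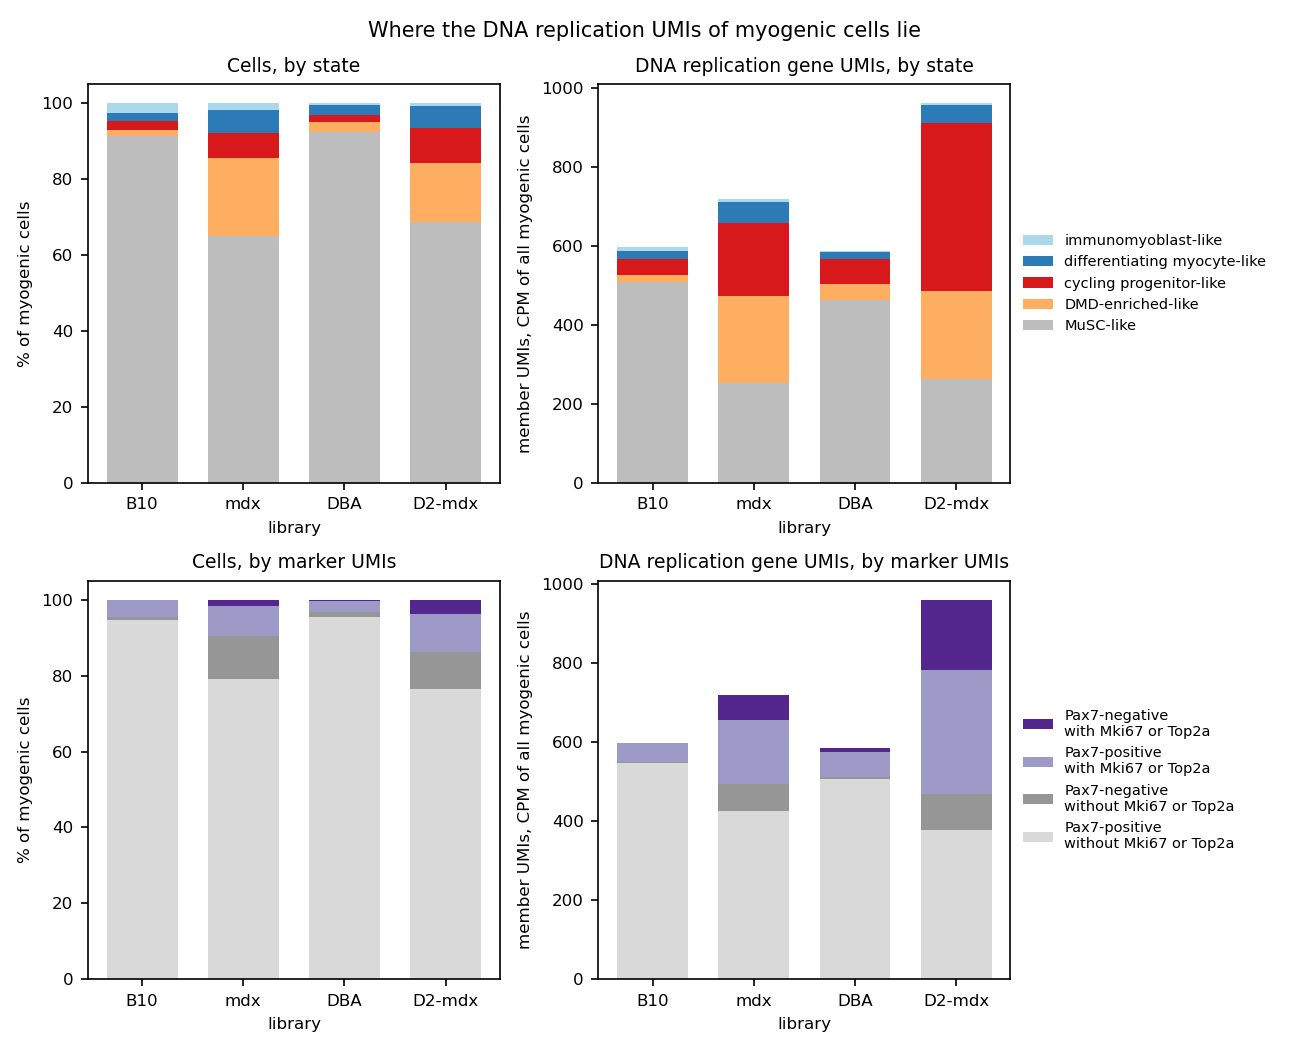
Stacked bars of the 4 libraries, by myogenic state in the upper row and by UMIs of *Pax7*, *Mki67* and *Top2a* in the lower row: the share of myogenic cells in percent on the left, and the CPM that each group contributes to the sum of the 43 genes on the right. *Pax7*-positive cells with *Mki67* or *Top2a* contribute 46.7, 161, 61.8 and 314 CPM in the order of the bars.

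Gene by gene, cycling progenitor-like cells of the second round were compared with MuSC-like cells of their own library, as a description. The cluster was named from markers of cycling cells, and only the 43 genes were left out of the features. Higher replication genes in it were thus largely set in advance. Genes low in MuSC-like cells, such as *Uhrf1* at 0.197, 0.63, 0.0738 and 0.897 CPM there, could also pass the minimum through other cells. Of the 36 genes above the 5 CPM minimum, 21, 31, 31 and 34 were at least 2-fold higher in the cycling cells, against 3.39, 11.9, 6.57 and 11.8% of all genes above it. Their median log2 ratio was 1.27, 1.91, 2.37 and 2.07, where that of all genes was -0.024, -0.15, -0.092 and -0.26. Among all 43, *Rfc1* was least different in *mdx* and D2-*mdx*, at 0.073 and 0.43, while *Orc6* was least in B10, at -0.38, and *Rpa3* in DBA, at -0.19. Of the 5 states, this one held the highest level of 25, 36, 29 and 36 of the 36 genes, against 22.1, 25.6, 18.8 and 24.1% of all genes. *Mcm6* stood at 57.4, 102, 125 and 100.4 CPM in these cells and *Mcm3* at 64.1, 116, 147 and 108 CPM, so that B10 alone stood low. *Pcna* was lower in both dystrophic libraries here too, at 101, 75.0, 161 and 80.1 CPM, log2 ratios of -0.42 (-0.73 to -0.12) and -1.01 (-1.29 to -0.72). *Rrm2* was at 13.4, 96.9, 42.5 and 147 CPM in the cycling progenitor-like and at 35.6, 28.5, 37.5 and 47.1 CPM in the DMD-enriched-like cells. With the 43 genes kept as features it was at 27.8, 104, 62.3 and 158 CPM in the former and at 14.3, 17.1, 3.06 and 14.6 CPM in the latter, the control values there from 6 and 2 UMIs. *Mcm6* and *Pcna* then stood at 63.7, 97.4, 109 and 98.5 CPM and at 106, 70.6, 157 and 82.9 CPM in the cycling progenitor-like cells. Of 16 immediate-early and dissociation genes, 15 were at least 2-fold lower in the *mdx* than in the B10 cells of the cycling progenitor-like cluster and 14 lower in D2-*mdx* than in DBA, and their part in these values was not tested. No share of all genes was set beside these counts, which come from cells of unlike makeup, so they cannot be judged against a background.

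Member UMIs were then counted per cell at equal depth. After thinning each cell to 3000 UMIs, which left out 39 B10 cells and none of the other libraries, the mean number of member UMIs was 1.76, 1.62, 1.54 and 1.55 in MuSC-like cells, 2.22, 2.04, 3.07 and 2.48 in DMD-enriched-like cells and 3.01, 5.21, 5.86 and 7.29 in cycling progenitor-like cells. *Pax7*-positive cells with *Mki67* or *Top2a* had a mean of 2.35, 3.75, 3.6 and 5.17. Cells with 10 or more member UMIs made up 2.99, 10.5, 10.7 and 19.4% of the latter. They were 8.16, 19.3, 23.5 and 31.8% of the cycling progenitor-like cells and numbered 2, 1, 0 and 0 among the MuSC-like cells. At the floor of 3 counts, 0 of 2495 DBA cells allows a share of up to 0.12% and 0 of 2874 D2-*mdx* cells one of up to 0.104%, and the upper ends of the exact 95% intervals were 0.148% and 0.128%. At the other end, 19.4, 16.5, 17.6 and 7.61% of the cycling progenitor-like cells had no member UMI at this depth.

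**Figure D3:**
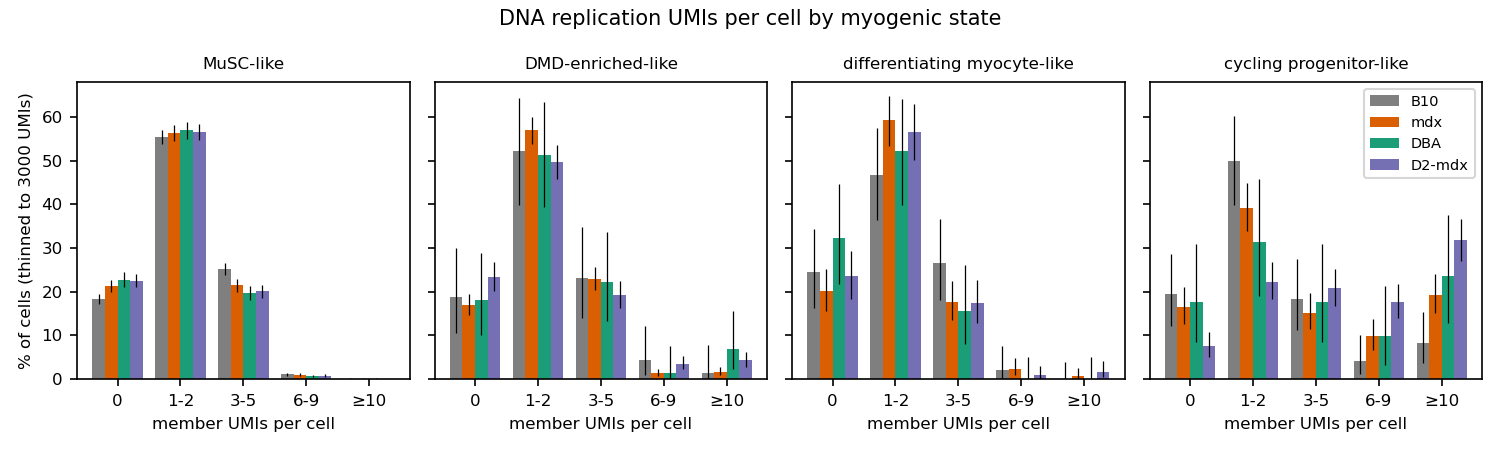
Percent of cells by the number of member UMIs per cell, from 0 to 10 or more, after thinning each cell to 3000 UMIs, in 4 myogenic states, with 1 bar per library and exact 95% binomial intervals. Cells with 10 or more member UMIs reach 8.16, 19.3, 23.5 and 31.8% of the cycling progenitor-like cells from left to right.

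The other question was whether replication transcripts differed in satellite cells without late-cycle transcripts. *Pax7*-positive cells without a UMI of *Mki67* or *Top2a*, called gated cells here, numbered 4182, 3812, 2582 and 3204, with median depths of 8363.5, 6663.5, 10259.5 and 6118.5 UMIs. A shallower cell shows a UMI of any of these 3 genes less readily. The 43 genes together were at 583 (576 to 591), 564 (555 to 572), 534 (525 to 542) and 559.9 (550.4 to 569.6) CPM. The log2 ratios were -0.049 (-0.078 to -0.021) and 0.069 (0.035 to 0.10), so both sums lay within 0.10 of their control on the log2 scale, where over all myogenic cells they did not. Their sign depended on the scaling and on the cells: with DESeq2 size factors the *mdx* ratio was 0.012, and with MuSC-like cells alone the D2-*mdx* ratio was -0.023. MuSC-like cells with a UMI of *Mki67* or *Top2a* held 556 (522 to 591), 547 (505 to 591), 536 (483 to 594) and 598 (554 to 646) CPM, against 572, 536, 514 and 512 CPM over all MuSC-like cells, with the largest difference in D2-*mdx*.

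Individual genes differed inside the gate although their sum did so little. Here 29 of the 43 genes reached the 5 CPM minimum, and 1 of 29 in *mdx* (*Rrm2*) and 2 of 29 in D2-*mdx* (*Rrm2* and *Mcm6*) were at least 2-fold higher than in the control. Among all genes these shares were 4.05% and 4.45%, so the counts of members lay near the background. None of the 29 was 2-fold lower, against 4.69% and 4.57% of all genes. *Rrm2* lay under 5 CPM in both controls of the gate and passed the minimum through the dystrophic libraries. Without the minimum, 7 and 9 of the 43 were at least 2-fold higher, against 11.3% and 12.3% of all genes. The median log2 ratios of the 29 genes were -0.012 and 0.10, against -0.051 and -0.078 over all genes. Of the 29 genes, 14 and 20 lay above 0, with no share of all genes above 0 set beside these counts.

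*Rrm2* (chromosome 12, 24708241 to 24714146, plus strand, GRCm38) was at 3.8, 14.0, 2.0 and 8.58 CPM in the gated cells. The controls were low and the dystrophic libraries high, with log2 ratios of 1.88 (1.60 to 2.16) and 2.10 (1.67 to 2.56). In the gated MuSC-like cells alone it stood at 3.49, 12.5, 1.72 and 6.12 CPM, log2 ratios of 1.83 (1.5 to 2.17) and 1.83 (1.31 to 2.38), so the difference stood in these cells without the other states. At 3000 UMIs per cell, 1.16, 3.78, 0.387 and 2.15% of gated cells had an *Rrm2* UMI, and 2.89, 9.29, 1.98 and 5.43% did without thinning. In pericyte-like cells, a type outside the muscle lineage whose median depths were 10655, 8030, 11076 and 6863 UMIs, the shares were 1.04, 0, 0 and 0.923%, where the 0 of 608 *mdx* and 0 of 484 DBA cells allow shares of up to 0.493% and 0.62%. Without thinning they were 3.06, 0.987, 0.62 and 2.77%, so gated cells exceeded the background of that type in *mdx* and D2-*mdx* and did not in B10. In DBA the gated share was the higher one without thinning, but at 3000 UMIs it lay below the limit of its pericyte-like cells. The B10 pericyte-like value is that of 96 cells.

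*Mcm6* (chromosome 1, 128331590 to 128359664, minus strand) was at 12.3, 19.6, 4.8 and 10.1 CPM in the gate, log2 ratios of 0.67 (0.49 to 0.84) and 1.08 (0.77 to 1.39). Both dystrophic libraries were above their own controls, and both libraries of the DBA background were below the other 2. In gated MuSC-like cells the log2 ratios were 0.39 (0.15 to 0.62) and 1.08 (0.63 to 1.54). The share of gated cells with an *Mcm6* UMI at equal depth was 3.52, 4.85, 1.24 and 2.18%, and in pericyte-like cells it was 2.08, 5.76, 0.826 and 2.36%, so a single UMI of this gene does not set myogenic cells apart.

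Smaller differences of the same sign in both comparisons were found for *Slbp*, at 35.5, 42.5, 32.0 and 40.6 CPM, with log2 ratios of 0.26 (0.15 to 0.37) and 0.34 (0.21 to 0.48). *Rfc2* was at 18.9, 25.0, 15.1 and 20.8 CPM, with 0.40 (0.25 to 0.55) and 0.46 (0.27 to 0.66). Genes under the 5 CPM minimum had larger ratios from few UMIs. *2810417H13Rik* was counted with 33, 91, 34 and 130 UMIs, log2 ratios of 1.76 (1.17 to 2.38) and 2.21 (1.66 to 2.80). *Gmnn* was counted with 55, 95, 26 and 113 UMIs and had 1.08 (0.59 to 1.59) and 2.40 (1.77 to 3.07). Its ratios in gated MuSC-like cells were 0.73 (0.048 to 1.41) and 2.45 (1.59 to 3.39). *Cdc45* had 1.53 (1.06 to 2.03) and 1.11 (0.56 to 1.67) in the gate, but 0.54 (-0.16 to 1.23) and 0.66 (-0.052 to 1.36) in its MuSC-like cells.

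A group of genes was lower in both dystrophic libraries of the gate. *Pcna* was at 33.8, 18.6, 32.3 and 20.9 CPM, with both controls above both dystrophic libraries and log2 ratios of -0.86 (-1.01 to -0.72) and -0.63 (-0.79 to -0.47). *Pola1* was at 22.9, 13.3, 22.1 and 11.9 CPM, with the controls again above and log2 ratios of -0.79 (-0.96 to -0.61) and -0.90 (-1.10 to -0.69). The polymerase δ subunits *Pold2* and *Pold3* had -0.49 and -0.46 in *mdx* and -0.42 and -0.19 in D2-*mdx*, and *Rfc1* had -0.16 and -0.24. *Orc6* was at 48.1, 35.4, 28.5 and 23.4 CPM, with -0.44 (-0.55 to -0.33) and -0.28 (-0.44 to -0.12). In gated MuSC-like cells *Pcna* had -0.73 (-0.92 to -0.55) and -0.62 (-0.81 to -0.43), and *Pola1* had -0.61 (-0.82 to -0.40) and -0.92 (-1.17 to -0.68). The intervals of *Orc6*, *Pold2* and *Rfc1* also lay below 0 there in both comparisons. *Pold3* had -0.14 (-0.31 to 0.026) in D2-*mdx* there, an interval that includes 0. None of these genes reached 2-fold, and no share of all genes lower in both comparisons was set beside this group. *Pola2* and *Lig1* had opposite signs in the pair of comparisons, -0.52 and 0.53 for the former and -0.21 and 0.23 for the latter, whose D2-*mdx* ratio was -0.016 (-0.30 to 0.26) in gated MuSC-like cells.

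**Figure D4:**
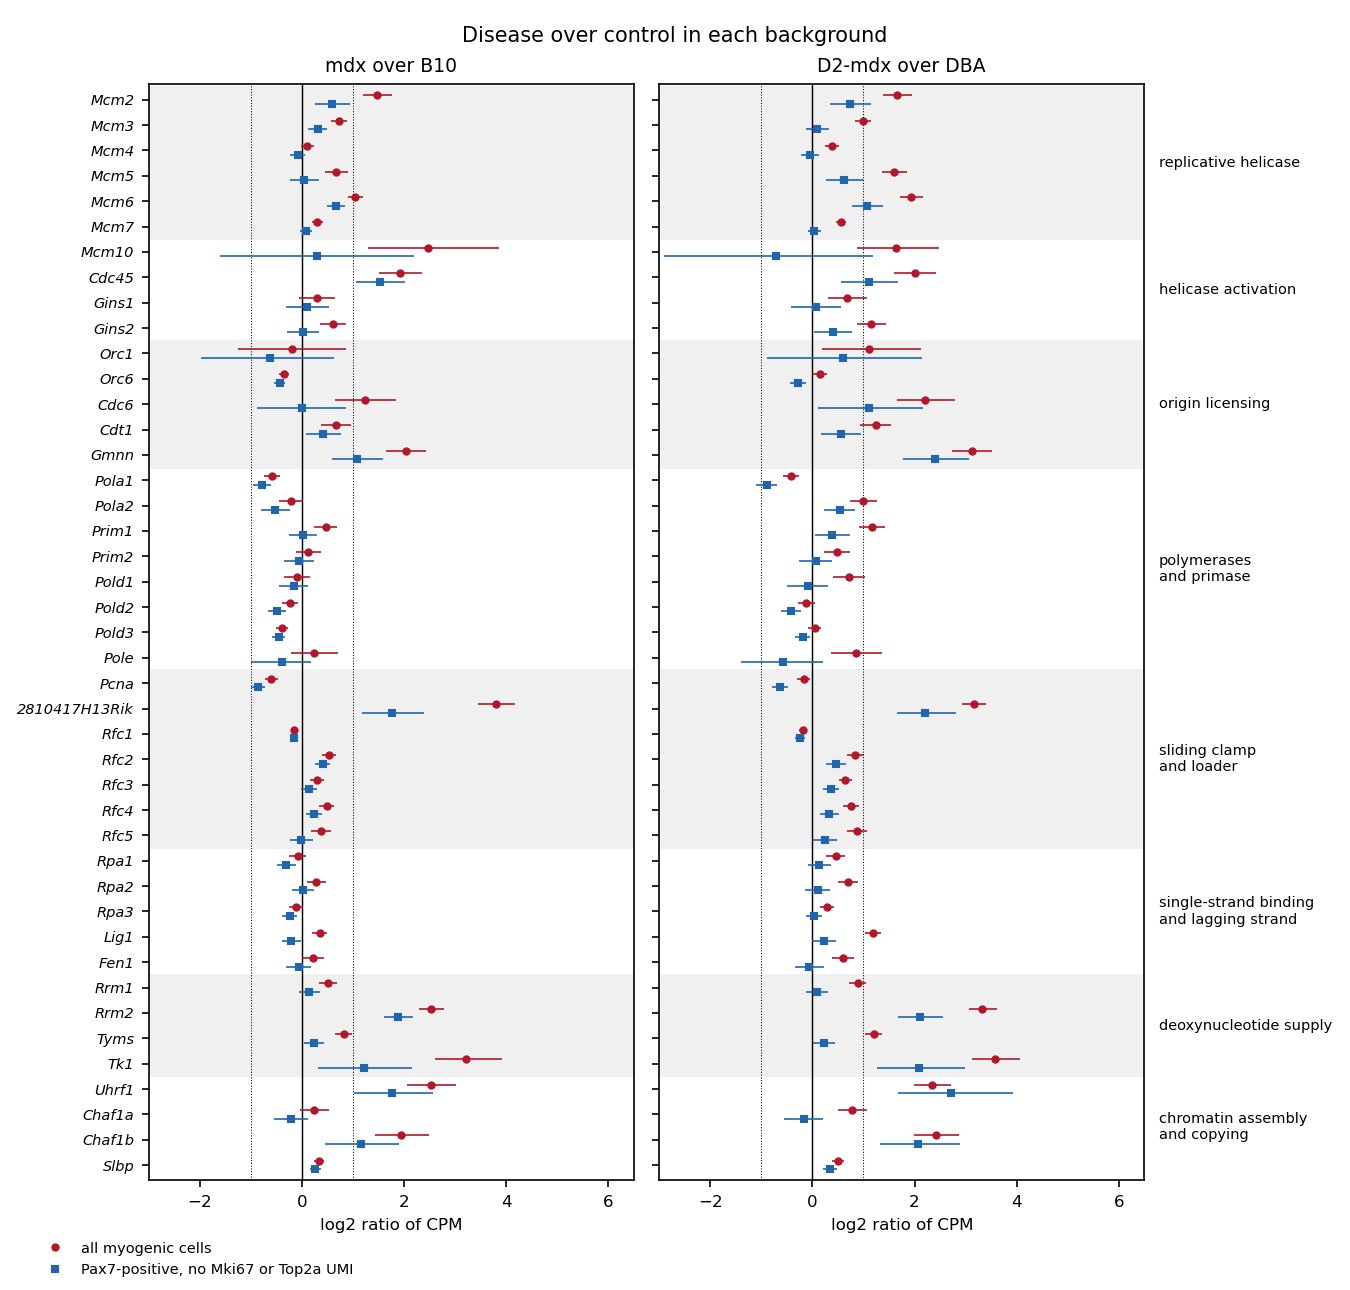
Log2 ratio of CPM for each of the 43 genes in both disease comparisons, 1 panel each, with exact 95% intervals for counting error; red circles stand for all myogenic cells, blue squares for *Pax7*-positive cells without *Mki67* or *Top2a* UMIs, and dotted lines mark a 2-fold difference. *Rrm2* lies at 1.88 and 2.10 in the gated cells, and *Pcna* at -0.86 and -0.63.

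By role, the gated cells were higher in disease for deoxynucleotide supply, with 26.4, 40.3, 28.1 and 39.4 CPM and log2 ratios of 0.61 (0.49 to 0.73) and 0.49 (0.35 to 0.63). Much of this was *Rrm2*, since without it the other 3 genes held 22.6, 26.3, 26.1 and 30.8 CPM, with log2 ratios of 0.22 and 0.24. In gated MuSC-like cells *Rrm1* had -0.16 and -0.13 and *Tyms* 0.051 and 0.085. Polymerases and primase were lower, with 106, 77.4, 95.8 and 80.2 CPM and -0.45 (-0.52 to -0.37) and -0.26 (-0.34 to -0.17). The helicase had 0.19 (0.12 to 0.26) and 0.18 (0.096 to 0.27), and the clamp and loader -0.091 (-0.14 to -0.038) and -0.0099 (-0.069 to 0.049). In gated MuSC-like cells only *Mcm6* of the helicase genes had intervals above 0 in both comparisons. There *Mcm3* had -0.33 (-0.65 to -0.026) in D2-*mdx*, and the other intervals of the helicase genes included 0. Over all gated cells, the sum near 0 thus combined roles that differed in sign.

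Gated cells were not of the same makeup in every library. MuSC-like cells were 91.8, 69.9, 93.4 and 78.9% of them and DMD-enriched-like cells 1.53, 20.5, 2.13 and 14.0%. Cycling progenitor-like cells were 1.98, 4.22, 1.59 and 3.0% of the gated cells and held 4.71, 10.2, 5.83 and 11.6% of the member UMIs in the gate. *Pax7* itself was at 925, 508, 710.2 and 561 CPM in the gate, so that the dystrophic cells that passed had less of it. *Hbb-bs* was at 14.7, 162, 183 and 619.7 CPM and *Acta1* at 10.3, 24.6, 9.52 and 93.3 CPM in the gate. The part of all these values in the results was not tested.

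Across states, *Rrm2* and *Mcm2* were distributed unlike each other. In differentiating myocyte-like cells *Rrm2* was at 2.25, 11.3, 0.935 and 10.9 CPM, where the control values rest on 3 UMIs or fewer, and *Mcm2* at 9.74, 30.2, 5.61 and 30.9 CPM. In DMD-enriched-like cells *Mcm2* was at 4.91, 5.78, 12.5 and 9.85 CPM, and with the 43 genes kept as features at 2.38, 4.25, 6.12 and 4.92 CPM, the control values of either from few UMIs. Cells with 5 or more UMIs of *Myog*, the transcription factor of terminal differentiation, and none of *Mki67* or *Top2a* were then examined, a choice made after seeing these values. There, 178 *mdx* cells held *Mcm2* at 38.3 CPM against 5.28 CPM in cells with no UMI of the 3 genes, and 149 D2-*mdx* cells held it at 33.8 CPM against 5.97 CPM, log2 ratios of 2.86 (2.48 to 3.22) and 2.50 (2.06 to 2.93). *Mcm3* went the other way, with -0.91 (-1.58 to -0.31) and -0.88 (-1.65 to -0.19). The 43 genes together were at 502 against 578 CPM in *mdx* and 572 against 598 CPM in D2-*mdx*. In B10 and DBA such cells numbered 6 and 14, and *Mcm2* was counted in them with 4 and 2 UMIs.

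**Figure D5:**
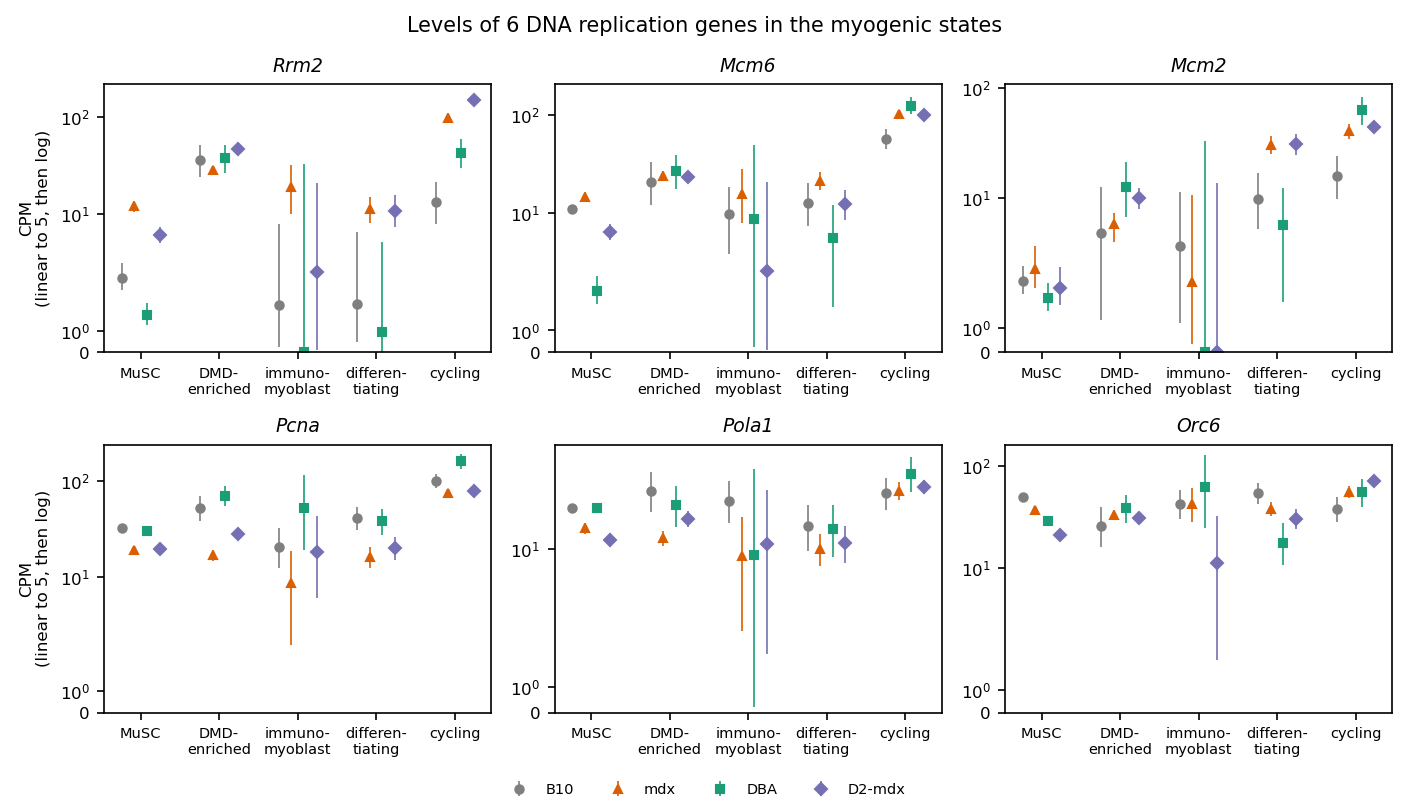
Levels of *Rrm2*, *Mcm6*, *Mcm2*, *Pcna*, *Pola1* and *Orc6* in CPM (axis linear to 5, then logarithmic) in the myogenic states of the second round, 1 mark per library with exact 95% Poisson intervals; the 6 genes were chosen after their values were seen. *Mcm2* reaches 30.2 and 30.9 CPM in the differentiating myocyte-like cells of *mdx* and D2-*mdx*.

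Other genes of the same processes were listed by function. These lists and the 43 genes were chosen with earlier results of these data known, so a contrast between them is description only. Of 31 further replication factors, 20 passed the minimum over all myogenic cells, and 0 of these in *mdx* and 3 in D2-*mdx* were at least 2-fold higher, with median log2 ratios of 0.017 and 0.17. Of all genes over all myogenic cells, 4.84% in *mdx* and 5.65% in D2-*mdx* were at least 2-fold higher, and 5.17% and 5.98% lower. *Dbf4*, the activator of the CDC7 kinase that fires origins, was at 4.71, 7.85, 4.91 and 14.4 CPM, and *Clspn*, a checkpoint mediator at the fork, had log2 ratios of 0.55 and 1.39. At the low end, *Orc5*, a subunit of the origin recognition complex, had -0.48 (-0.74 to -0.23) and -0.53 (-0.81 to -0.24), and *Atad5*, which unloads PCNA, had -0.13 and -0.26. Of 17 measured genes of nucleotide supply and S-phase chromatin outside the 43, 1 was at least 2-fold higher and 1 lower in *mdx*, and 2 were higher and 1 lower in D2-*mdx*. *Hells*, a chromatin remodeller, was at 4.11, 10.3, 5.94 and 20.4 CPM, and *Dctpp1*, a pyrophosphatase of the nucleotide pool, had 0.60 and 0.95.

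Within nucleotide supply, genes differed in opposite directions. *Dck*, the deoxycytidine kinase of salvage, was at 10.7, 3.68, 13.1 and 3.44 CPM in the gated cells, log2 ratios of -1.54 (-1.86 to -1.24) and -1.93 (-2.30 to -1.58). *Shmt1*, a folate enzyme that feeds thymidylate synthesis, had -0.93 (-1.13 to -0.74) and -1.41 (-1.63 to -1.20). Both controls lay above both dystrophic libraries for *Dck*, while *Rrm2* had the reverse order in the same cells.

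Cell cycle lists framed these values. Of 30 listed mitosis genes, 19 reached the minimum over all myogenic cells, and all 19 were at least 2-fold higher in *mdx* and in D2-*mdx*. Among all genes 4.84% and 5.65% were higher, and 5.17% and 5.98% lower. As the minimum is a mean over the 4 libraries, genes low in the controls could pass it through the dystrophic libraries. The median log2 ratios of the 19 genes were 2.56 and 2.90. They cannot be ranked against those of the replication genes, since the minimum admitted unlike parts of the lists. *Birc5*, a component of the chromosomal passenger complex, had 3.71 and 3.88, and *Ccnb1*, cyclin B1, had 3.59 and 3.36. At the low end, *Prc1*, a midzone protein, had 1.93 and 1.83, and *Mki67* itself 1.17 and 1.83. Of 14 measured regulators of G1/S, 3 in *mdx* and 4 in D2-*mdx* were at least 2-fold higher and 0 and 1 lower. *Ccna2*, cyclin A2, had 2.81 and 2.85, whereas *E2f3* had -0.46 and -0.57 and the pocket protein gene *Rbl2* -0.45 and -1.09. *Cdk6*, a kinase of G1, was at 11.0, 76.8, 12.8 and 66.9 CPM within the gated cells, log2 ratios of 2.80 (2.65 to 2.96) and 2.39 (2.22 to 2.55).

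Some inhibitors of the cycle were higher as well, from a list chosen with earlier results of these data known. In the gated cells 4 of 7 in *mdx* and 4 of 7 in D2-*mdx* were at least 2-fold higher, against 4.05% and 4.45% of all genes. *Cdkn1c*, which encodes p57, was at 27.0, 639, 29.4 and 299.8 CPM. *Cdkn2a*, which encodes p16INK4a and p19ARF, was at 1.02, 72.4, 2.07 and 100.5 CPM. It lay under 5 CPM in both controls and passed the minimum through the dystrophic libraries. *Cdkn1b* and *Cdkn2c* lay between -0.39 and 0.011 on the log2 scale. Of 16 immediate-early and dissociation genes, which also respond to cell isolation, 0 in *mdx* and 2 in D2-*mdx* were at least 2-fold higher in the gate, with medians of -0.12 and 0.12.

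Between backgrounds, D2-*mdx* exceeded *mdx* in summed replication transcripts by a log2 ratio of 0.42 (0.39 to 0.44) over all myogenic cells, while DBA and B10 differed by -0.030 (-0.058 to -0.0017). These comparisons share libraries with the ones above and add no independent evidence. In the gated cells the sums differed by -0.0099 (-0.043 to 0.023) and -0.13 (-0.16 to -0.098). Of the 36 genes above the minimum, 4 were at least 2-fold higher in D2-*mdx* than in *mdx*, against 1.95% of all genes, and 3 were higher in DBA than in B10, against 2.06%. Both counts include *Tk1* and *Uhrf1*, which lay under 5 CPM in both controls and passed the minimum through the dystrophic libraries. The counts are thus descriptions only. In the gate 0 of 29 were at least 2-fold higher in either comparison, against 1.81% and 1.87% of all genes. There 1, *Mcm6*, was 2-fold lower in DBA than in B10, against 2.15%.

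Within the gate, *Mcm6* and *Orc6* were lower on the DBA background. Over all myogenic cells *Mcm6* was alike in *mdx* and D2-*mdx*, at 26.6 and 26.8 CPM. In cycling progenitor-like cells *Mcm6* stood higher in DBA than in B10. In DMD-enriched-like cells DBA lay above B10 for *Mcm6* (26.9 against 20.9 CPM) and *Orc6* (38.4 against 25.8 CPM), with overlapping intervals. The order of *Mcm6* reversed with the replication genes kept as features, at 10.7 CPM in DBA against 16.7 CPM in B10. Each of these values came from 7 UMIs, and their intervals overlapped too. In the gate *Mcm6* had a log2 ratio of -1.36 (-1.65 to -1.08) between the controls and -0.95 (-1.18 to -0.73) between the dystrophic libraries, and *Orc6* had -0.76 (-0.88 to -0.64) and -0.60 (-0.75 to -0.45). *Pold1* followed with -0.61 (-0.94 to -0.29) and -0.54 (-0.92 to -0.17). For *Mcm6* the 2 DBA-background libraries were also the lower ones among pericyte-like cells without thinning, of which 14.3, 13.8, 3.1 and 5.33% had a UMI. These shares depend on depth. At equal depth, as given above, DBA was still the lowest but D2-*mdx* did not lie below B10. *2810417H13Rik* was higher on the DBA background over all myogenic cells, with 1.69 (1.28 to 2.11) and 1.05 (0.94 to 1.16), and within the gate it had 0.43 (-0.30 to 1.17) and 0.89 (0.49 to 1.29).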

How the data were processed

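Per the labels and the study's methods, the authors counted UMIs per gene with Cell Ranger 3.0.1 against mm10 and deposited these raw counts per barcode, 1 library per strain. Here, barcodes were kept between 1000 and 5000 genes with mitochondrial UMIs of 8% or less, and doublets predicted by Scrublet (scanpy 1.11.5, expected fraction 0.008 per 1000 cells) were removed, which left 4581 cells of B10, 6313 of *mdx*, 3279 of DBA and 5756 of D2-*mdx*. Libraries were integrated and clustered in Seurat 5.3.0 (2000 features, 30 dimensions) at resolution 0.1, and myogenic cells a second time at 0.2. The 43 genes were left out of the features, and clusters with fewer than 3 detected markers stayed unnamed. The first-round cycling cluster and the clustering with the 43 genes kept were examined after seeing the data.

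Raw counts were summed per library and group of cells. Intervals, all at 95%, are exact Poisson for levels, Clopper-Pearson for shares and binomial for ratios. Counting error is all they cover, and no test or p-value was computed. A gene counted as different at 2-fold or more with a mean of 5 CPM over the libraries, and a group at 0 was set to a floor of 3 counts. Names printed are the 43 genes, 3 leading genes per cluster, the check genes and, per further list, the 2 highest and 2 lowest genes by the mean of both disease ratios. The members and lists were chosen with earlier results of these data known. Alternatives were library sizes by TMM (edgeR 4.0.16) and DESeq2 1.42.0, means over cells, thinned counts, other minima, wider barcode limits and other groups of cells. The ratio calculation was tested on simulated data.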

Additional observations from a re-analysis of the deposited data

Results flagged for a closer look

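Signs differed between the backgrounds for 4 results, and none of these differences was tested. *Orc6* over all myogenic cells had a log2 ratio of -0.36 and 0.15 in *mdx* and D2-*mdx* over their controls. Within *Pax7*-positive cells without *Mki67* or *Top2a* UMIs, *Pola2* had -0.52 and 0.53, and *Lig1* had -0.21 and 0.23. The sum of the 43 genes in those cells had -0.049 and 0.069.

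Replication transcripts were also counted in cells and barcodes outside the comparisons. Predicted doublets held 641 CPM of the 43 genes in *mdx* against 566 CPM in B10, and 793 CPM in D2-*mdx* against 547 CPM in DBA. Pericyte-like cells of D2-*mdx* held 755 CPM, and those of DBA 569 CPM. Barcodes above 5000 genes held 2752 CPM in D2-*mdx* against 1629 CPM in DBA. Over all cell types, their share of the member UMIs was 33.1% in *mdx* against 8.56% in B10. It was 56.8% in D2-*mdx* against 25.7% in DBA.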

How the results depend on the processing

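No paired analysis was possible because each strain has 1 library, and for the same reason no library could be left out. Values are log2 ratios of the summed 43 genes or counts of genes at least 2-fold higher, and the cause of a change was not tested. Over all myogenic cells, *mdx* over B10 (0.27) became 0.62 with wider barcode limits, 0.32 with TMM, 0.32 with DESeq2 size factors, 0.13 as a mean over cells and 0.21 over all kept cells. Its count of 7 became 16 with wider limits, 3 with means over cells, 1 with a minimum of 20 CPM and 11 with none. D2-*mdx* over DBA (0.71) became 1.23, 0.76, 0.79, 0.43 and 0.62 in the same order of settings, and its count of 13 became 25, 5 with means over cells and 2 at 20 CPM. D2-*mdx* over *mdx* (0.42) became 0.72 with wider limits, 0.45 with DESeq2, 0.21 as a mean and 0.38 over all kept cells. DBA over B10 (-0.030) turned to 0.11 with wider limits and was -0.088 as a mean.

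In *Pax7*-positive cells without *Mki67* or *Top2a* UMIs, *mdx* over B10 (-0.049) was -0.017 with TMM, turned to 0.012 with DESeq2, and was -0.081 as a mean over cells, -0.12 thinned, -0.11 without any mitosis UMI and -0.11 in MuSC-like cells. Its count of 1 became 0 at 20 CPM and 7 with no minimum. D2-*mdx* over DBA (0.069) was 0.11 with TMM, 0.14 with DESeq2, 0.023 as a mean, 0.026 with 2 or more *Pax7* UMIs, and turned to -0.023 in MuSC-like cells. Its count of 2 became 1 with 2 or more *Pax7* UMIs or when thinned, 0 at 20 CPM and 9 with no minimum.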
